A study of Mus musculus with 4 samples.

Results

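The 10 genes described here were the D-type cyclins Ccnd1, Ccnd2 and Ccnd3, the inhibitors of cyclin-dependent kinases Cdkn1a (p21), Cdkn1b (p27), Cdkn1c (p57) and Cdkn2c (p18), and the Myc factors Myc, Mycn and Mycl. They were taken by symbol from the 32285 genes listed in each of the 4 deposited matrices, and all 10 were found. The matrices hold single-cell RNA counts of hearts from C57BL/6J mouse embryos at stage E10.5. The Wt libraries (Wt1 and Wt2) came from wild-type embryos, and the Ho libraries (Ho1 and Ho2) from embryos homozygous for the knock-in allele Cyp51 I383V, which changes an amino acid of a sterol demethylase of cholesterol synthesis in every cell of the embryo. No source used here says how many embryos were pooled in a library. P-values between genotypes therefore measure the spread between libraries, 2 for each genotype. Those between cell sets of the same libraries measure how far the differences varied over the 4 libraries. The counted transcript ends do not read the changed codon, so the genotype labels could not be checked from these counts.

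Unique molecular identifiers (UMIs, each standing for 1 captured transcript) were summed per library over cells chosen by marker genes, and these cell sets are called gates. Cardiomyocytes were split into compact ventricular cells (Hey2 with low Nppa, 1010 cells), trabecular ventricular cells (high Nppa, 880 cells) and atrial cells (Stard10, 1917 cells). The other gates were endocardium (Cdh5, 5997 cells), cushion mesenchyme (Hapln1, 1758 cells), Crabp1+ mesenchyme (2283 cells) and epicardium (Upk3b, 677 cells). The gates took 14522 of the 30172 cells used. Levels are given in CPM, normalised UMIs per 1000000 UMIs of the gate (TMM scaling over all 28 sums of 7 gates and 4 libraries), and values of a genotype are listed with its library 1 first. A sum held between 264853 UMIs, in Crabp1+ cells of Ho1, and 30772087 UMIs, in endocardium of Ho1.

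The gates were checked on markers that had no part in choosing the cells. The trabecular markers Bmp10 and Gja5 stood at means of 73.6 and 51.8 CPM in the trabecular gate against 8.98 and 8.46 in the compact gate, and the atrial marker Sln at 18.6 in the atrial gate and at most 0.203 in the others. The endocardial marker Npr3 was at 156 in endocardium and 7.99 in cushion cells, and the mesenchymal markers Twist1 and Postn were at 759.7 and 158 in cushion cells and 75.0 and 18.9 in endocardium. Tcf21, a marker of epicardium, was at 785 there and at most 106 in the other gates. Prrx1 was at 63.5 in Crabp1+ and 38.4 in cushion cells, with values from 34.0 to 131 in the Crabp1+ libraries, so it set these gates less clearly apart. Hapln1, which was used to choose cushion cells, still reached 468 in endocardium against 936 in cushion cells (CPM without TMM scaling). Cdh5 and the other endothelial markers also mark vessels, so the endocardium gate can hold endothelium of vessels too. The macrophage markers C1qb, Cx3cr1 and Tyrobp were at 0 UMIs in the compact and trabecular gates, on which no limit for macrophage genes was set, while the endocardium, cushion, Crabp1+ and epicardium gates were chosen with few UMIs of Fcer1g and Tyrobp. The atrial gate had no such limit either. There the 5 macrophage markers summed to 7.20 and 5.17 CPM in the Wt and 0 in both Ho libraries (without TMM scaling). Their part in the atrial differences between genotypes was not tested. Myl7 reached a mean of 2577 in epicardium.

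Library Ho1 stood apart in several measures. It held 32234 Xist UMIs and no UMI of the Y-linked genes counted, where the other libraries held at most 5 Xist UMIs and at least 9968 Y-linked UMIs. By these counts Ho1 held female cells and Wt1, Wt2 and Ho2 male cells, so sex was not balanced between the genotypes. The 6 blood markers summed to 806 CPM (without TMM scaling) in its compact gate against at most 5.04 in the other libraries, and Hba-x was the most abundant of them. In endocardium the same sum was 95.2 and 399 in the Wt and 669 and 135 in the Ho libraries. On that scale the endothelial marker Cdh5 stood at 7.36 in compact and 9.38 in trabecular cells of Ho1. The other libraries had at most 2.32 and 2.22 in these gates. The Crabp1+ gate of Ho1 had 24 cells, against 1876, 202 and 181 in Wt1, Wt2 and Ho2. Pairs of libraries shared 12 to 29 cell barcodes among the cells used. The part of these differences in the results below was not tested, and fits without each library were run for the tests between genotypes, between gates and between mitotic states.

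D-type cyclins bind the kinases CDK4 and CDK6 and start the phosphorylation of the retinoblastoma protein, which releases E2F factors and lets a cell pass from G1 into S phase. Cdkn2c belongs to the INK4 inhibitors, which bind CDK4 and CDK6 alone, and Cdkn1a, Cdkn1b and Cdkn1c belong to the CIP/KIP inhibitors, which bind cyclin and kinase complexes more widely. Cdkn1a is a classic target of p53, and Cdkn1c is an imprinted gene expressed from the maternal copy. Myc, Mycn and Mycl are transcription factors that pair with Max and raise genes of growth and ribosome assembly. In the embryonic heart Mycn is known for its part in growth of the compact ventricular wall.

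Promoter sequences were listed for 6 of the 10 members (Ccnd3, Cdkn1a, Cdkn1b, Cdkn2c, Mycn and Mycl) in RefSeq on GRCm38.p6, as 250 bases before to 50 after the start. For Ccnd3, Cdkn1a and Cdkn2c 2 starts were listed, and only the window of the more upstream one was used. The promoters of Mycn and Cdkn1b are shown because both genes were higher in compact than in trabecular cells. That of Cdkn1a is shown because it was lower in endocardium cells high in mitotic genes. That of Cdkn2c is shown because its few UMIs in that comparison lay mainly in the high cells, which does not make a usable test. Capitals mark the motifs searched on both strands: the E-box CACGTG, the E2F letters TTTGGCGC, TTTCCCGC and TTTCGCGC, the GC box GGGCGG, the CCAAT box CCAAT, and the core of a p53 site, CATGNNNNNNCATG, the last added after the Cdkn1a sequence was seen.
Mycn (chr12:12941787-12942086, minus strand): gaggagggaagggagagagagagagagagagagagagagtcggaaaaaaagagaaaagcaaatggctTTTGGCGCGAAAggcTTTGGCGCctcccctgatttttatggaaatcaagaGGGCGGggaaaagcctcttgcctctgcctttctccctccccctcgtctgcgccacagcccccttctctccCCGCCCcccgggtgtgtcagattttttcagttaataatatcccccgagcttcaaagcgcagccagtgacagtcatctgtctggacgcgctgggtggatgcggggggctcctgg
Cdkn1b (chr6:134920151-134920450, plus strand): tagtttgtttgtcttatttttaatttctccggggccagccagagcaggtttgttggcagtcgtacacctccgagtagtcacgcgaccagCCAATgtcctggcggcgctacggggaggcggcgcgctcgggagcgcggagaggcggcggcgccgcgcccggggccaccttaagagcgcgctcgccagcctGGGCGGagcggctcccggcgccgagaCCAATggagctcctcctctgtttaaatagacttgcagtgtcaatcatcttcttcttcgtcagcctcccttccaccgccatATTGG
Cdkn2c (chr4:109666707-109667006, minus strand): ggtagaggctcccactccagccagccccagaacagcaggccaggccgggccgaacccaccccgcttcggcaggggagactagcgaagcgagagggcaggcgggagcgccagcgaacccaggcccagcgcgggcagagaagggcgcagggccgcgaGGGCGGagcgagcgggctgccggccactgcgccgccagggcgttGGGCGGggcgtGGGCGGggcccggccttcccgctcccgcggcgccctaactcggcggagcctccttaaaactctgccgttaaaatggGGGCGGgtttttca
Cdkn1a (chr17:29090729-29091028, plus strand): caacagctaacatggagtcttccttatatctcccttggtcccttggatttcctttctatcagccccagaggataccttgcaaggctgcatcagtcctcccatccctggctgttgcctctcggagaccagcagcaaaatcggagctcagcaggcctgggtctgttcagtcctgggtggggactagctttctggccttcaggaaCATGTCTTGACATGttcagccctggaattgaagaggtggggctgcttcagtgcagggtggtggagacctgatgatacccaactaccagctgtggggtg

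Of these 4 promoters, that of Mycn held E2F letters, in 3 matches, of which 2 overlap, starting 183, 179 and 168 bases before the start. E2F letters were found in 1.84% of the 32851 promoters of the same length. The Cdkn2c window had 4 GC boxes and the Cdkn1b window 3 CCAAT boxes and 1 GC box, motifs held by 35.7% and 37.4% of all promoters for the GC and CCAAT box. The Cdkn1a window held the p53 core once, 48 bases before the more upstream of its 2 listed starts. This core is held by 0.712% of all promoters, and none of the 4 windows held the E-box, which 7.15% hold. A match describes letters and not binding.

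Within the gene bodies, Ccnd1 lies on chromosome 7 (144929931 to 144939925, GRCm38), as does Cdkn1c (143458339 to 143461050), and Ccnd2 lies on chromosome 6 (127125162 to 127152193). Myc lies on chromosome 15 (61985391 to 61990374) and Mycn on chromosome 12 (12936093 to 12941914).

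Among the D-type cyclins, each had another order over the gates. Ccnd2 was highest in compact cells, with 698 and 564 in the Wt and 648 and 734 in the Ho libraries (CPM). Epicardium followed with a mean of 473 ± 61.4 (SD, n = 4). In trabecular cells the Ccnd2 level was 293 and 243 in the Wt and 311 and 367 in the Ho libraries, and in atrial cells 228 and 254 in the Wt and 285 and 293 in the Ho libraries. Every compact value was above every value of the other 6 gates, and the lowest levels of the gene were in Crabp1+ (159 ± 59.4, mean ± SD, n = 4 libraries) and cushion cells (132 ± 13.9). Of the 6 steps between neighbours in this order 5 passed the test, and the step from trabecular to atrial did not (edgeR adjusted p = 0.241). A pair of gates was passed by 23.1% of all genes (compact and trabecular) to 73.1% (atrial and endocardium), and by 54.8% on average over the 21 pairs. The last 3 of these steps were each lost when 1 library was left out, that from atrial to endocardium without Ho2 (adjusted p = 0.243), that from endocardium to Crabp1+ without Wt2 (adjusted p = 0.169) or Ho1 (adjusted p = 0.0789) and that from Crabp1+ to cushion without Wt1 (adjusted p = 0.0511) or Ho2 (adjusted p = 0.176). With the Wt libraries alone the steps from atrial to endocardium (edgeR adjusted p = 0.579) and from Crabp1+ to cushion (adjusted p = 0.0685) were lost too. The step from atrial to endocardium also did not pass with DESeq2 (adjusted p = 0.057).

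Ccnd1 was lowest in the cardiomyocyte gates and highest in epicardium and cushion. Its level in epicardium was 306 and 388 in the Wt and 309.9 and 353 in the Ho libraries, in cushion 291 and 274 in the Wt and 263 and 272 in the Ho libraries, and in endocardium 112 and 115 in the Wt and 114 and 105 in the Ho libraries. Compact cells had a mean of 52.1 ± 6.22 (SD, n = 4), trabecular cells 51.3 ± 4.98 and atrial cells 30.4 ± 5.08, with no value above 60.4. In Crabp1+ cells Ho1 stood at 310.2 where the other libraries lay between 101 and 134. The neighbours epicardium and cushion (edgeR adjusted p = 0.0644), Crabp1+ and endocardium (adjusted p = 0.138), and compact and trabecular (adjusted p = 0.975) were not separated by the test.

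Ccnd3 varied least of the D-type cyclins between the gates. Its mean level was 165 ± 17.2 (SD, n = 4) in compact, 160.1 ± 16.2 in trabecular and 156 ± 17.8 in epicardium, and the steps between these 3 did not pass the test. It was 133 ± 7.71 in endocardium, 92.7 ± 13 in Crabp1+, 79.7 ± 6.29 in atrial and 77.7 ± 8.91 in cushion cells, and the step from endocardium to Crabp1+ passed (edgeR adjusted p = 1.08e-06).

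Taken as a share of the UMIs of the 3 D-type cyclins, which a 3' library counts once per captured transcript whatever its length, Ccnd2 made up 70.1% to 78.4% in compact cells, 54.6% to 60.4% in trabecular and 67.9% to 73.5% in atrial cells. In cushion cells Ccnd1 led with 55.6% to 58.9%, and in epicardium Ccnd2 (46.2% to 51.0%) and Ccnd1 (33.1% to 37.4%) were nearer to each other. In the Crabp1+ gate Ho1, with 156 D-type cyclin UMIs, stood apart, with Ccnd1 at 63.5% against 27.4% to 34.3% in the other libraries.

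**Figure D1:**
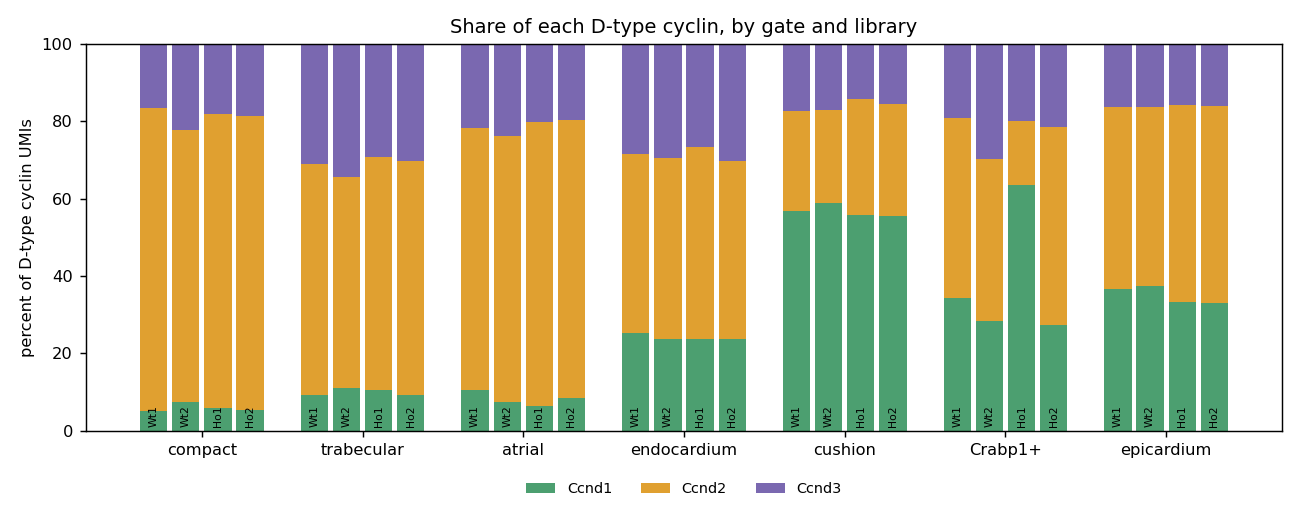
Share of the UMIs of Ccnd1, Ccnd2 and Ccnd3 (percent, vertical axis) in each of the 4 libraries of each gate (horizontal axis). Ccnd2 takes the largest part of every cardiomyocyte bar, and Ccnd1 that of every cushion bar.

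Of the inhibitors, Cdkn1c set the endocardium gate apart. Its level there was 8716 and 11131 in the Wt and 9868 and 9282 in the Ho libraries (CPM), above every library of every other gate. Epicardium followed with 3576 and 4749 in the Wt and 4239 and 4897 in the Ho libraries, then trabecular cells with a mean of 2973 ± 385 (SD, n = 4) and compact cells with 2429 ± 191. Atrial cells were lowest, at 664 and 810.2 in the Wt and 666 and 769 in the Ho libraries. The steps from endocardium to epicardium (log2 difference 1.17 ± 0.21 (SE), edgeR adjusted p = 2.94e-05), from epicardium to trabecular (adjusted p = 0.024) and from cushion to atrial (adjusted p = 7.75e-05) passed the test, of which that from epicardium to trabecular was lost without Wt2 (adjusted p = 0.0678) or Ho2 (adjusted p = 0.123).

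Cdkn1a, in contrast, was found mainly in cardiomyocytes, cushion and endocardium. Its level in compact cells was 30.1 and 32.5 in the Wt and 31.1 and 21.1 in the Ho libraries, and the means were 21.1 ± 5.53 (SD, n = 4) in trabecular, 19.9 ± 4.99 in atrial, 17.4 ± 5.24 in cushion and 15.1 ± 0.644 in endocardium cells. Of the 10 pairs among these 5 gates 4 passed, none of them neighbours in this order, where 54.5% of all genes passed on average. Compact cells were above endocardium (0.92 ± 0.18 (SE), edgeR adjusted p = 4.62e-05), a call kept under the alternatives run. They were also above cushion (adjusted p = 0.00156) and atrial cells (adjusted p = 0.0312), and trabecular cells were above endocardium (adjusted p = 0.00782), but these 3 did not pass with the Wt libraries alone and the atrial one did not pass without Wt2, Ho1 or Ho2 either (adjusted p = 0.0976, 0.0676 and 0.112), nor the one between trabecular cells and endocardium without Ho1 (adjusted p = 0.0619). With stricter gates the calls of compact cells against cushion (edgeR adjusted p = 0.0596) and atrial cells (adjusted p = 0.377) were lost. The atrial call was lost with DESeq2 as well (adjusted p = 0.168). Epicardium and Crabp1+ cells were far lower, at 3.32 ± 2.99 and 2.85 ± 0.817, from 54 and 59 UMIs over the 4 libraries. The step from endocardium to epicardium was 1.98 ± 0.31 on the log2 scale (SE, edgeR adjusted p = 3.91e-06).

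Cdkn1b ranged from a mean of 29.2 ± 2.68 (SD, n = 4) in compact to 18.8 ± 2.23 in trabecular cells, and 7 of the 21 pairs of gates passed the test (54.8% of all genes did on average), with none of its 6 neighbour steps among them. Compact cells were above endocardium (0.49 ± 0.12 (SE), edgeR adjusted p = 0.000897), which was lost with cells thinned (adjusted p = 0.357) or without Ho2 (adjusted p = 0.052). Cdkn2c was scarce everywhere, with 18 to 64 UMIs over 4 libraries in the 6 gates other than endocardium. In endocardium 458 UMIs gave 4.19 and 4.01 in the Wt and 5.32 and 4.03 in the Ho libraries (CPM), above epicardium in all 4 libraries (edgeR adjusted p = 0.0168), a call lost without Wt1 (adjusted p = 0.0801) or Ho1 (adjusted p = 0.0877).

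Of the Myc factors, Myc was at 24.6 and 27 in the Wt and 28.1 and 30.1 in the Ho libraries (CPM) in endocardium and 30.5 and 27 in the Wt and 32 and 29.4 in the Ho libraries in cushion, which the test did not separate (edgeR adjusted p = 0.291). Epicardium (14.7 ± 2.85, SD, n = 4) and Crabp1+ cells (11.1 ± 2.43) lay between, and no cardiomyocyte sum exceeded 4.9. The gap between the lowest of the other gates and the highest cardiomyocyte gate, Crabp1+ to trabecular, was 1.21 ± 0.22 on the log2 scale (SE, edgeR adjusted p = 2.21e-05), and was lost with cells thinned to 5000 UMIs (adjusted p = 0.271).

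Mycn was highest in compact cells, at 44.6 and 40.6 in the Wt and 39.7 and 44.1 in the Ho libraries, and in epicardium, at 30.1 and 32.6 in the Wt and 39.6 and 46.1 in the Ho libraries, a pair that the test did not separate (edgeR adjusted p = 0.374). Trabecular cells had 9.81 and 18.1 in the Wt and 16.4 and 21 in the Ho libraries. All compact values lay above all trabecular values. Mycl was detected by few UMIs: 201 in Crabp1+ cells, of which 159 came from Wt1, 123 in atrial cells and 8 to 51 in each of the other gates. In atrial cells it was at 3.99 and 4.21 in the Wt and 2.55 and 3.91 in the Ho libraries, and in trabecular cells 2, 1, 3 and 2 UMIs were counted in Wt1, Wt2, Ho1 and Ho2.

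**Figure D2:**
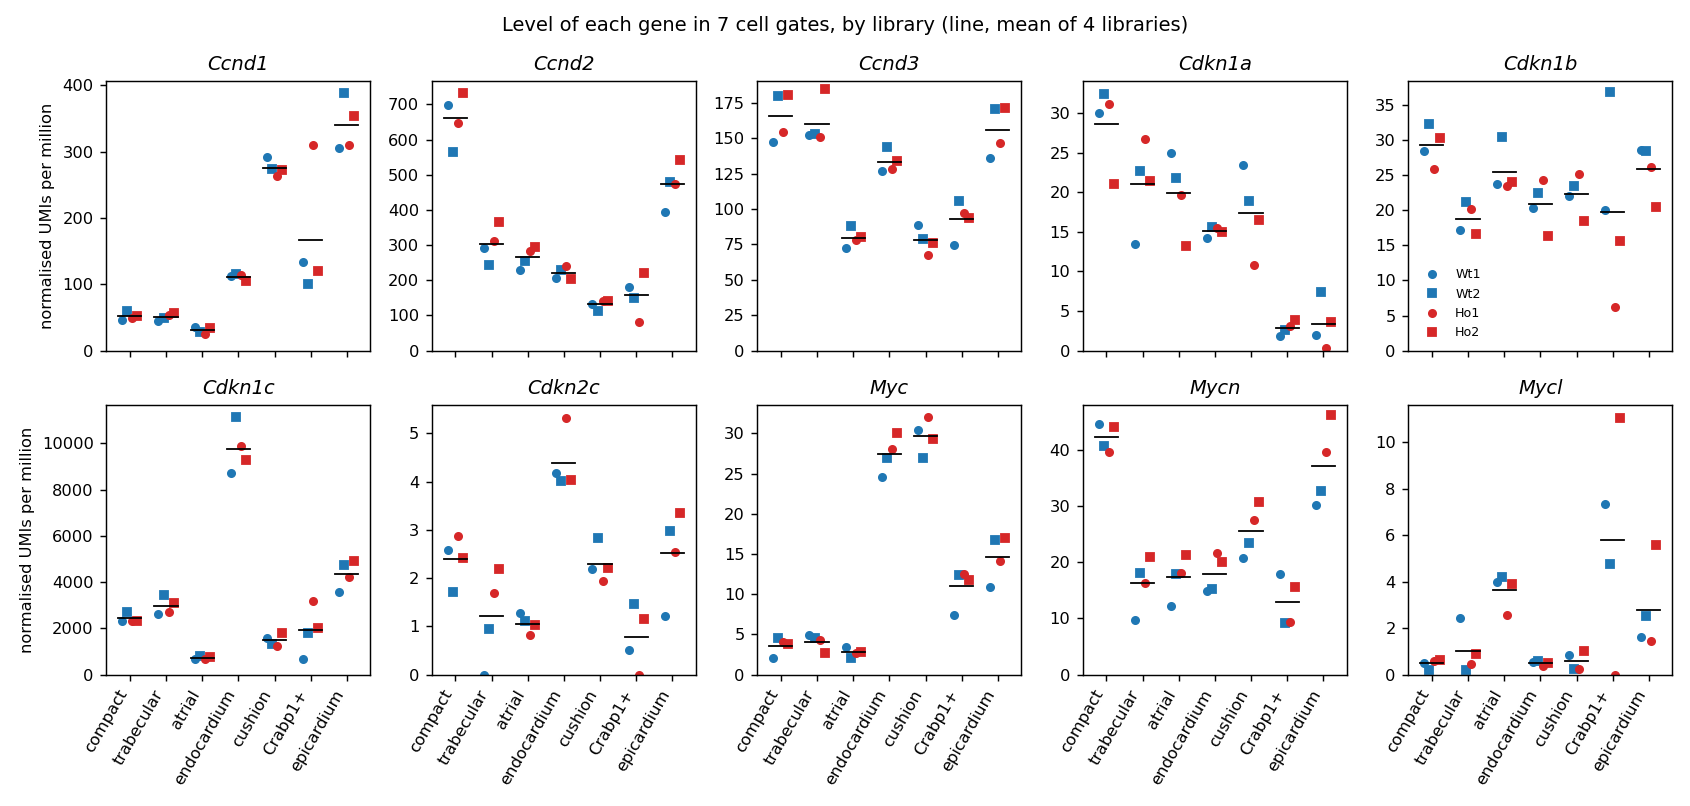
Level of each gene (CPM, vertical axis, starting at 0) in the 7 gates (horizontal axis). Points are libraries, with Wt in blue and Ho in red, and lines are means of 4. Cdkn1c peaks in endocardium, Ccnd2 and Mycn in compact cells, and Myc is low in the 3 cardiomyocyte gates.

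The compact and trabecular layers of the ventricle were compared first. In this contrast 3 of the 10 members passed, all higher in compact cells, where 23.1% of all 13007 genes tested passed, 10.1% higher and 12.9% lower. The log2 fold change of Mycn was 1.26 ± 0.16 (SE), edgeR adjusted p = 1.31e-06, that of Ccnd2 1.13 ± 0.12 (SE), edgeR adjusted p = 5.43e-08, and that of Cdkn1b 0.62 ± 0.16 (SE), edgeR adjusted p = 0.00466. Each was higher in compact cells in 4 of 4 libraries with no overlap. Cdkn1b did not pass with the Wt libraries alone (adjusted p = 0.119), without Ho2 (adjusted p = 0.0654) or with cells thinned to 5000 UMIs (adjusted p = 0.301).

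Mitotic transcripts also separated these layers. The share of cells with at least 5 UMIs of 20 mitotic genes, after each cell was thinned to 5000 UMIs, was 69.7%, 63.3%, 65.4% and 72.1% of compact cells in Wt1, Wt2, Ho1 and Ho2, and 41.7%, 52.8%, 44.4% and 38.7% of trabecular cells. The ranges did not overlap. Thinning left out 10 and 12 Wt and 13 and 2 Ho compact cells, and 22 and 39 Wt and 34 and 12 Ho trabecular cells, and unthinned shares were 81.7% to 85.7% in compact and 47.1% to 70.4% in trabecular cells. 20 of 20 mitotic genes tested were higher and 0 lower (median log2 fold change 0.77, against -0.02 over all genes tested).
Among the 33 other genes listed for the step from G1 to S phase, 6 of 32 pathway genes tested were higher and 1 lower (median log2 fold change 0.21, against -0.02 over all genes tested). The cyclin Ccna2 (log2 fold change 0.80 ± 0.13 (SE), edgeR adjusted p = 7.34e-05) and the kinase Cdk4 (0.56 ± 0.083 (SE), edgeR adjusted p = 1.55e-05) rose most in compact cells, and Mxd4, which competes with Myc for Max, fell (-0.49 ± 0.15 (SE), edgeR adjusted p = 0.0167).
Among genes known as targets of Myc factors, 10 of 15 Myc targets tested were higher and 0 lower (median log2 fold change 0.39, against -0.02 over all genes tested), led by the nucleolar gene Npm1 (0.74 ± 0.13 (SE), edgeR adjusted p = 0.000176). Cdk4 is on both the pathway and the Myc target list and is counted in each. 3 of 10 p53 targets tested were higher and 1 lower (median log2 fold change -0.048, against -0.02 over all genes tested). The p53 targets did not move together, with Bbc3, a promoter of cell death, higher (1.02 ± 0.15 (SE), edgeR adjusted p = 1.55e-05) and Ccng1 lower (-0.73 ± 0.12 (SE), edgeR adjusted p = 4.06e-05).

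**Figure D3:**
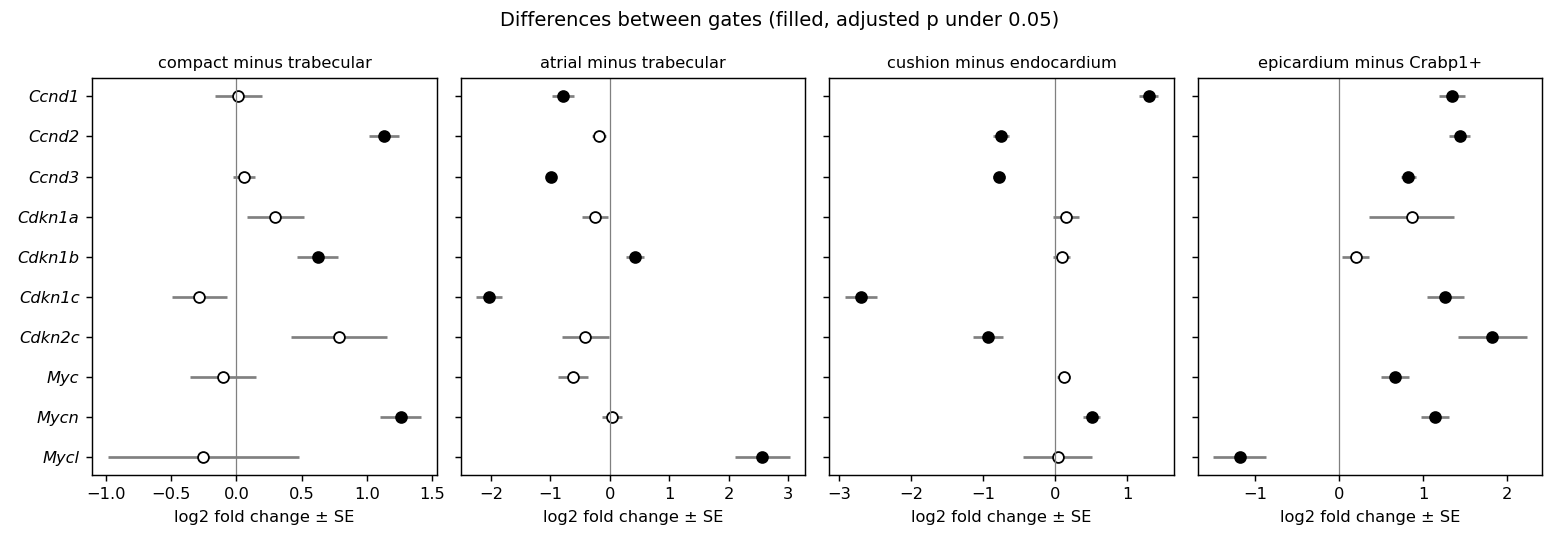
Log2 fold change of each gene (horizontal axis, with its SE) in 4 contrasts between gates. Filled points passed the test. Ccnd2 and Mycn are the largest filled points of the compact and trabecular contrast, and Cdkn1c is the lowest point in the atrial and in the cushion contrast.

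Atrial cells differed from trabecular cells in 5 members, 2 higher and 3 lower, beside 35.2% of all genes, 17.2% higher and 17.9% lower. Cdkn1c was lower with a log2 fold change of -2.03 ± 0.22 (SE), edgeR adjusted p = 2.06e-08, Ccnd3 with -0.99 ± 0.083 (SE), edgeR adjusted p = 1.98e-10, and Ccnd1 with -0.79 ± 0.18 (SE), edgeR adjusted p = 0.00108. Mycl was higher (2.56 ± 0.46 (SE), edgeR adjusted p = 7.17e-05), and so was Cdkn1b (0.42 ± 0.15 (SE), edgeR adjusted p = 0.0297). The size of the Mycl fold rests on trabecular counts near 0, with 2 and 1 UMIs in the Wt and 3 and 2 in the Ho libraries. All 5 had the same sign in 4 of 4 libraries, but Ccnd1 (adjusted p = 0.0906) and Cdkn1b (adjusted p = 0.11) did not pass with the Wt libraries alone, nor did Cdkn1b with thinned cells (adjusted p = 0.0987) or without Wt2 (adjusted p = 0.121) or Ho2 (adjusted p = 0.0962).
Among the other genes of the step from G1 to S phase, 8 of 32 pathway genes tested were higher and 5 lower (median log2 fold change 0.0073, against 0.0028 over all genes tested), with Mxi1 (0.56 ± 0.12 (SE), edgeR adjusted p = 0.00044) and Mnt (0.53 ± 0.17 (SE), edgeR adjusted p = 0.0138), partners of Max, highest, and Mxd4 (-1.22 ± 0.15 (SE), edgeR adjusted p = 1.67e-07) and Rb1, the retinoblastoma gene (-0.81 ± 0.27 (SE), edgeR adjusted p = 0.0184), lowest. In the same contrast, 4 of 15 Myc targets tested were higher and 1 lower (median log2 fold change 0.072, against 0.0028 over all genes tested). 2 of 10 p53 targets tested were higher and 1 lower (median log2 fold change 0.052, against 0.0028 over all genes tested). 14 of 20 mitotic genes tested were higher and 0 lower (median log2 fold change 0.43, against 0.0028 over all genes tested).

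Cushion mesenchyme arises from endocardium by an epithelial to mesenchymal transition. Between these gates 6 members differed, 2 higher in cushion and 4 lower, beside 47.5% of all genes, 22.2% higher and 25.2% lower. Cdkn1c was lower by the widest margin (log2 fold change -2.70 ± 0.22 (SE), edgeR adjusted p = 3.38e-11), with 1585 and 1335 in the Wt and 1242 and 1805 in the Ho libraries (CPM) in cushion cells. Cdkn2c (-0.93 ± 0.21 (SE), edgeR adjusted p = 0.000523), Ccnd3 (-0.78 ± 0.077 (SE), edgeR adjusted p = 1.53e-09) and Ccnd2 (-0.74 ± 0.11 (SE), edgeR adjusted p = 3.25e-06) were lower too. Ccnd1 was higher (1.30 ± 0.13 (SE), edgeR adjusted p = 2.63e-09), as was Mycn (0.51 ± 0.12 (SE), edgeR adjusted p = 0.000789). With the Wt libraries alone Cdkn2c (adjusted p = 0.168) and Mycn (adjusted p = 0.0922) did not pass.
Among the other genes of the step from G1 to S phase, 4 of 32 pathway genes tested were higher and 9 lower (median log2 fold change -0.0038, against -0.014 over all genes tested). Cdkn2b, an INK4 inhibitor as Cdkn2c is, rose most (3.45 ± 0.26 (SE), edgeR adjusted p = 3.84e-12), followed by Cdk6, a partner of D-type cyclins (1.31 ± 0.11 (SE), edgeR adjusted p = 6.96e-11), and E2f2 (-1.55 ± 0.19 (SE), edgeR adjusted p = 5.83e-08) and the cyclin Ccne1 (-1.02 ± 0.14 (SE), edgeR adjusted p = 9.04e-07) fell most. In the same contrast, 4 of 20 mitotic genes tested were higher and 2 lower (median log2 fold change -0.018, against -0.014 over all genes tested). 1 of 15 Myc targets tested were higher and 1 lower (median log2 fold change -0.0085, against -0.014 over all genes tested). 1 of 10 p53 targets tested were higher and 1 lower (median log2 fold change -0.034, against -0.014 over all genes tested).

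Epicardium exceeded Crabp1+ mesenchyme in 7 members and was below it in 1, beside 43.0% of all genes, 22.9% higher and 20.1% lower. The log2 fold change was 1.82 ± 0.41 (SE), edgeR adjusted p = 0.000671 for Cdkn2c, 1.43 ± 0.12 (SE), edgeR adjusted p = 2.05e-10 for Ccnd2, and 1.35 ± 0.15 (SE), edgeR adjusted p = 4.31e-08 for Ccnd1. It was 1.26 ± 0.22 (SE), edgeR adjusted p = 2.33e-05 for Cdkn1c and 1.14 ± 0.16 (SE), edgeR adjusted p = 1.76e-06 for Mycn, with Ccnd3 and Myc the other members that were higher (0.82 ± 0.091 and 0.67 ± 0.17), and Mycl lower (-1.18 ± 0.32 (SE), edgeR adjusted p = 0.00325). Ccnd1 was higher in epicardium in 3 of 4 libraries, with 309.9 CPM in epicardium and 310.2 in Crabp1+ cells of Ho1, and Mycl was lower in 3 of 4, with 0 UMIs in Crabp1+ cells of Ho1. The other 6 had the same sign in 4 of 4 libraries, with overlapping ranges for Cdkn2c and Myc. Without Wt1, which gave 1876 of the 2283 Crabp1+ cells, Cdkn2c (adjusted p = 0.0633), Myc (adjusted p = 0.0887) and Mycl (adjusted p = 0.0556) did not pass and 5 members did, and without Ho1 9 did. Myc did not pass with the Wt libraries alone (adjusted p = 0.0756).
Among the other genes of the step from G1 to S phase, 8 of 32 pathway genes tested were higher and 7 lower (median log2 fold change -0.042, against -0.02 over all genes tested), with Cdk6 (1.18 ± 0.15 (SE), edgeR adjusted p = 2.92e-07) and Tfdp2, a partner of E2F factors (0.88 ± 0.10 (SE), edgeR adjusted p = 5.09e-08), highest and Cdkn2b (-1.87 ± 0.45 (SE), edgeR adjusted p = 0.00113) and E2f2 (-1.69 ± 0.34 (SE), edgeR adjusted p = 0.000177) lowest. In the same contrast, 5 of 15 Myc targets tested were higher and 0 lower (median log2 fold change 0.22, against -0.02 over all genes tested). 2 of 10 p53 targets tested were higher and 1 lower (median log2 fold change -0.063, against -0.02 over all genes tested). 3 of 20 mitotic genes tested were higher and 1 lower (median log2 fold change 0.06, against -0.02 over all genes tested).

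Cardiomyocytes as a whole, the mean of 3 gates against the mean of the 4 others, differed in 7 members, 3 higher and 4 lower, where 77.3% of all genes passed, 38.0% higher and 39.3% lower. Cdkn1a (1.80 ± 0.15 (SE), edgeR adjusted p = 6.17e-12), Ccnd2 (0.76 ± 0.062 (SE), edgeR adjusted p = 7.79e-12) and Ccnd3 (0.23 ± 0.045 (SE), edgeR adjusted p = 4.53e-05) were higher. Myc (-2.41 ± 0.10 (SE), edgeR adjusted p = 7.01e-19) and Ccnd1 (-2.15 ± 0.089 (SE), edgeR adjusted p = 9.65e-19) were lower, as were Cdkn1c (-0.91 ± 0.12 (SE), edgeR adjusted p = 4.25e-08) and Cdkn2c (-0.51 ± 0.19 (SE), edgeR adjusted p = 0.0196). These means join unlike gates. Of the 12 pairs of a cardiomyocyte gate with another gate, Ccnd1 and Myc passed as lower in all 12, while Ccnd2 passed as higher in 10 and as lower in 2, where epicardium exceeded trabecular (-0.66 ± 0.12) and atrial cells (-0.84 ± 0.11). Cdkn1a passed as higher in 9, and did not pass between atrial and cushion (adjusted p = 0.336), atrial and endocardium (adjusted p = 0.0513) or trabecular and cushion cells (adjusted p = 0.0673). Ccnd3 passed as higher in 6 and lower in 2, Cdkn1c as higher in 3 and lower in 8, and Cdkn2c as higher in 1 and lower in 6, where 32.9% of all genes passed as higher and 32.3% as lower on average over these pairs. In the comparison of means Cdkn2c did not pass without Wt2 (adjusted p = 0.236) or Ho2 (adjusted p = 0.0621), and neither Cdkn2c (adjusted p = 0.0536) nor Ccnd3 (adjusted p = 0.163) passed with the Wt libraries alone. Of the Myc targets, 12 of 15 were lower in cardiomyocytes and 3 were higher (median log2 fold change -0.30, against -0.027 over all genes tested).
Among the other genes of the step from G1 to S phase, 4 of 32 pathway genes tested were higher and 18 lower (median log2 fold change -0.28, against -0.027 over all genes tested), with E2f8 (1.46 ± 0.10 (SE), edgeR adjusted p = 1.54e-13) and the INK4 inhibitor Cdkn2d (1.44 ± 0.042 (SE), edgeR adjusted p = 1.44e-22) highest. The Max partner Mxd3 (-1.92 ± 0.10 (SE), edgeR adjusted p = 2.75e-16) and E2f5 (-1.86 ± 0.05 (SE), edgeR adjusted p = 1.89e-23) were lowest. In the same contrast, 5 of 10 p53 targets tested were higher and 3 lower (median log2 fold change 0.22, against -0.027 over all genes tested). 5 of 20 mitotic genes tested were higher and 12 lower (median log2 fold change -0.25, against -0.027 over all genes tested).

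The second question was whether the Cyp51 allele went with other levels of these genes. No member passed the test in any of the 7 gates, where 0.153% of all genes tested passed in compact, 0.00% in trabecular, 0.308% in atrial, 0.00% in endocardium, 0.156% in cushion, 0.00% in Crabp1+ and 0.0481% in epicardium cells (edgeR). DESeq2 called none either. Between 8 and 10 members were tested in a gate, and an unadjusted p under 0.05 was reached by 0 members in compact, 1 in trabecular, 3 in atrial, 1 in endocardium, 4 in cushion, 0 in Crabp1+ and 1 in epicardium cells. The same unadjusted limit was passed by 7.63%, 5.05%, 4.48%, 5.40%, 5.85%, 1.13% and 4.78% of all genes in these gates.

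Mycn had an unadjusted p under 0.05 in 4 of 7 gates, and passed the adjusted test in none. In endocardium its level was 14.9 and 15.3 in the Wt and 21.6 and 20.1 in the Ho libraries (CPM), where the lowest Ho value exceeded the highest Wt value (log2 fold change 0.47 ± 0.10 (SE), edgeR unadjusted p = 0.00145, adjusted p = 0.519). In cushion it was 20.7 and 23.5 in the Wt and 27.5 and 30.8 in the Ho libraries (log2 fold change 0.38 ± 0.14 (SE), edgeR unadjusted p = 0.012, adjusted p = 0.573). Ho was again above Wt in both libraries, as it was in epicardium (0.45 ± 0.16 (SE), edgeR unadjusted p = 0.0147, adjusted p = 0.829) and atrial cells (0.34 ± 0.17 (SE), edgeR unadjusted p = 0.0421, adjusted p = 1). The share of all genes with both Ho values above both Wt values was 18.1% in endocardium, 16.7% in cushion, 16.0% in epicardium and 15.8% in atrial cells, among genes with a mean of at least 1 CPM. The endocardium difference passed with no filter on low counts (edgeR adjusted p = 0.0108). Without Ho2, which leaves Ho1 as the only Ho library, its log2 fold change was 0.52. The gates of a library share its cells' embryos and handling, so they are not separate tests of the genotype.

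Cdkn1a had an unadjusted p under 0.05 in 2 of the 6 gates where it was tested. In cushion it stood at 23.4 and 18.8 in the Wt and 10.8 and 16.5 in the Ho libraries (log2 fold change -0.67 ± 0.19 (SE), edgeR unadjusted p = 0.00221, adjusted p = 0.283), and in atrial cells at 25 and 21.8 in the Wt and 19.7 and 13.2 in the Ho libraries (-0.49 ± 0.16 (SE), edgeR unadjusted p = 0.00322, adjusted p = 0.429). Both Ho values were below both Wt values in each, as for 17.8% and 14.7% of all genes. The cushion difference passed with no filter (edgeR adjusted p = 0.0172). With a single Ho library kept, the log2 fold change was -0.95 in cushion without Ho2 and -0.82 in atrial cells without Ho1. In compact cells Cdkn1a had the lowest p of the members (-0.28 ± 0.17 (SE), edgeR unadjusted p = 0.113, adjusted p = 0.742), and its groups overlapped. In trabecular (0.26 ± 0.21 (SE), edgeR unadjusted p = 0.244, adjusted p = 0.981) and endocardium cells (0.025 ± 0.10 (SE), edgeR unadjusted p = 0.813, adjusted p = 0.989) the difference had the other sign, and both changed sign under other settings. The other p53 targets did not pass in any gate.

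Ccnd2 had an unadjusted p under 0.05 in 3 of 7 gates. Its log2 fold change was 0.34 ± 0.15 (SE), edgeR unadjusted p = 0.0448, adjusted p = 0.972 in trabecular, 0.26 ± 0.12 (SE), edgeR unadjusted p = 0.0342, adjusted p = 1 in atrial and 0.21 ± 0.094 (SE), edgeR unadjusted p = 0.0344, adjusted p = 0.798 in cushion cells, where Ho libraries lay above Wt libraries without overlap, as for 18.0%, 15.8% and 16.7% of all genes in these gates. Ccnd3 in cushion cells was 88.9 and 78.8 in the Wt and 67.3 and 76 in the Ho libraries, with Ho below Wt (-0.23 ± 0.10 (SE), edgeR unadjusted p = 0.0375, adjusted p = 0.809). In Crabp1+ cells the lowest p was that of Cdkn1b (-1.06 ± 0.48 (SE), edgeR unadjusted p = 0.0638, adjusted p = 1), at 20 and 36.9 in the Wt and 6.27 and 15.6 in the Ho libraries (CPM), from UMI counts of 433 and 101 in the Wt and 2 and 41 in the Ho libraries. The log2 fold change ran from -0.63 without Wt2 to -2.13 without Ho2 and did not pass in any of these fits.

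**Figure D4:**
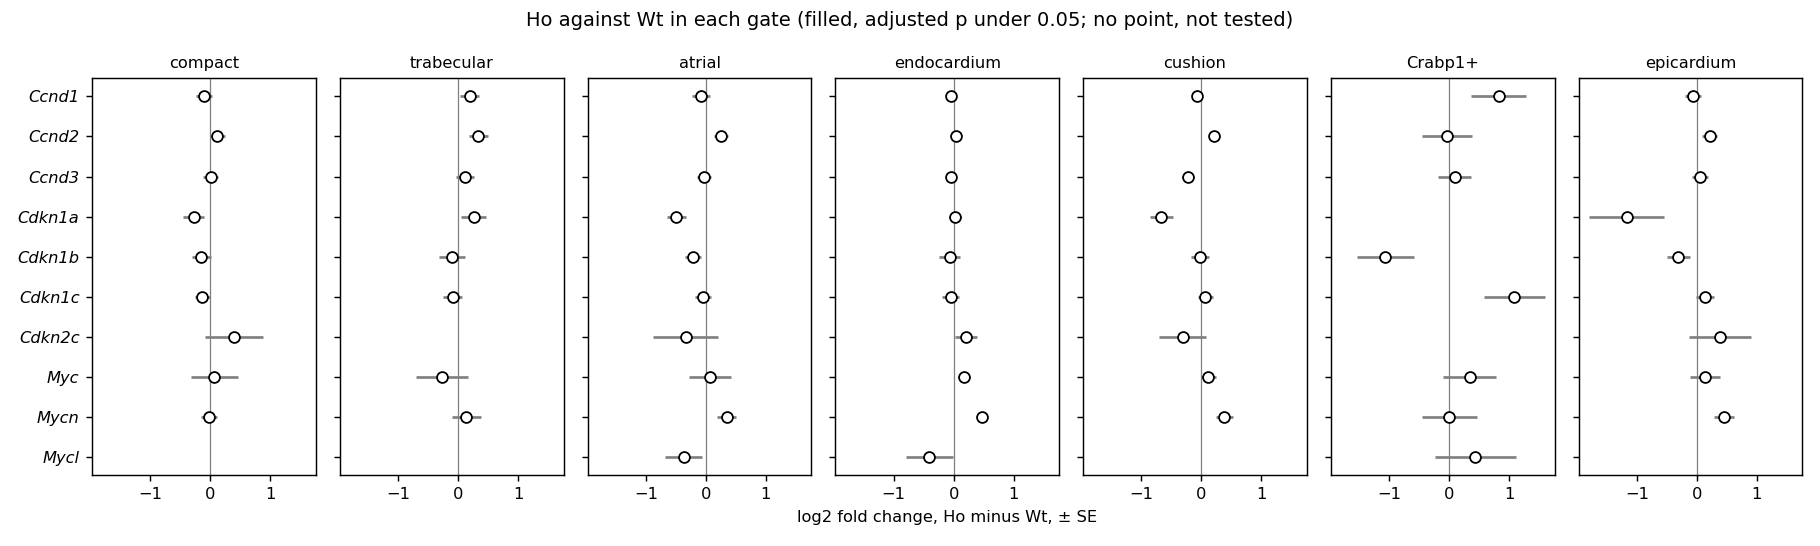
Log2 fold change of Ho against Wt (horizontal axis, with its SE) for each gene in each gate. No point is filled, as none passed the test, and the widest error is that of Mycl in Crabp1+ cells.

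The difference between genotypes was not shown to differ among gates. In the interaction test no member passed and none of 13007 genes did, while an unadjusted p under 0.05 was reached by 3.02% of all genes and by 1 member, Cdkn1c (edgeR unadjusted p = 0.0249, adjusted p = 1). With no filter on low counts 230 genes passed, among them Cdkn1c (adjusted p = 7.23e-10) and Cdkn1a (adjusted p = 0.0221). Of the pathway genes, Myc targets and mitotic genes, none passed for genotype in any gate. In whole libraries, where cell makeup enters the sums, no member passed either, and the lowest p were those of Mycn (0.45 ± 0.12 (SE), edgeR unadjusted p = 0.0118, adjusted p = 0.802) and Ccnd2 (0.32 ± 0.11 (SE), edgeR unadjusted p = 0.0314, adjusted p = 0.802).

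The members were last compared between cells high and low in mitotic transcripts within a gate. Cells were thinned to 5000 UMIs, and those with at least 5 UMIs of the 20 mitotic genes were set against those with at most 1 UMI. These are the ends of a range and not cell types. Compact, trabecular, atrial, endocardium and cushion cells had at least 20 cells in every sum. Levels in this comparison are CPM of the thinned sums without TMM scaling, and folds are TMM scaled.

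Cdkn1a was lower in mitotic-gene-high cells in each of the 4 gates where it was tested. In cushion cells its level was 13.4 and 12 in the Wt and 5.05 and 15.3 in the Ho libraries in high cells and 63.2 and 40 in the Wt and 24 and 25.4 in the Ho libraries in low cells (log2 fold change -1.80 ± 0.26 (SE), edgeR adjusted p = 2.62e-10). The log2 fold change was -1.12 ± 0.17 (SE), edgeR adjusted p = 3.76e-06 in endocardium, -1.08 ± 0.27 (SE), edgeR adjusted p = 0.00081 in atrial and -0.98 ± 0.33 (SE), edgeR adjusted p = 0.0259 in compact cells, and the test of a difference among the gates did not pass for this gene (adjusted p = 0.575). In all, 4 of 8 members tested passed in cushion, 6 of 9 in endocardium, 4 of 7 in atrial, 3 of 6 in compact and 2 of 4 in trabecular cells, against 11.9%, 27.4%, 22.5%, 19.1% and 17.9% of all genes. Cdkn1a was lower in 4 of 4 libraries in cushion and endocardium and in 3 of 4 in atrial and compact cells. The atrial call was lost without Ho1 (adjusted p = 0.265) and the compact call without Wt1 (adjusted p = 0.0933), with no filter on low counts (adjusted p = 0.105) or with high cells at 10 UMIs (adjusted p = 0.0595).

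Cdkn1c changed sign between gates. In endocardium it was higher in high cells, with 9251 and 11647 in the Wt and 9718 and 9708 in the Ho libraries in high and 7871 and 9552 in the Wt and 8639 and 8164 in the Ho libraries in low cells (0.30 ± 0.022 (SE), edgeR adjusted p = 6.02e-12). It was lower in cushion (-0.58 ± 0.037 (SE), edgeR adjusted p = 5.4e-54), atrial (-0.35 ± 0.054 (SE), edgeR adjusted p = 1.9e-09), trabecular (-0.31 ± 0.065 (SE), edgeR adjusted p = 0.000146) and compact cells (-0.25 ± 0.059 (SE), edgeR adjusted p = 0.000828). Each sign held in 4 of 4 libraries, and the difference among the 5 gates, a test added after these signs were seen, gave an adjusted p of 2.54e-27 (edgeR), where 8.44% of all genes passed. The compact call was lost without Wt1 (adjusted p = 0.0568) or with no filter on low counts (log2 fold change -0.11, adjusted p = 0.353).

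Ccnd2 also changed sign. It was higher in high cells in atrial (0.69 ± 0.087 (SE), edgeR adjusted p = 9.15e-14), compact (0.27 ± 0.085 (SE), edgeR adjusted p = 0.0177) and endocardium cells (0.27 ± 0.053 (SE), edgeR adjusted p = 0.000304), and lower in cushion cells, with 129 and 104 in the Wt and 124 and 135 in the Ho libraries in high and 188 and 154 in the Wt and 227 and 175 in the Ho libraries in low cells (-0.60 ± 0.10 (SE), edgeR adjusted p = 2.7e-07). In trabecular cells the means were 254 in high and 286 in low cells, lower in high cells in 4 of 4 libraries but by less than 1 CPM in Ho2, and this difference did not pass (-0.26 ± 0.11 (SE), edgeR adjusted p = 0.0952). The test of the difference among gates gave an adjusted p of 2.33e-14 (edgeR). The compact call was lost without Ho1 (adjusted p = 0.102) or Ho2 (adjusted p = 0.224).

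Ccnd1 was lower in high cells in atrial (-1.03 ± 0.21 (SE), edgeR adjusted p = 1.49e-05) and cushion cells (-0.41 ± 0.074 (SE), edgeR adjusted p = 8.91e-07), and Ccnd3 in trabecular cells (-0.49 ± 0.15 (SE), edgeR adjusted p = 0.0132). In endocardium Cdkn2c stood at 6.33 and 4.63 in the Wt and 7.95 and 8 in the Ho libraries in high cells, against 0.733 and 0 in the Wt and 1.71 and 0 in the Ho libraries in low cells (3.38 ± 0.51 (SE), edgeR adjusted p = 6.69e-06). Low cells held 1 and 0 UMIs in the Wt and 3 and 0 in the Ho libraries, so Cdkn2c entered the test through the high cells. Its size and its call, counted among the 6 members that passed in endocardium, are therefore not read as a result. Cdkn1b was higher in high cells of this gate (0.51 ± 0.14 (SE), edgeR adjusted p = 0.00823), and Myc was lower, at 20.3 and 22 in the Wt and 21.6 and 22.6 in the Ho libraries against 43.2 and 39.2 in the Wt and 40.5 and 44.9 in the Ho libraries (-0.88 ± 0.12 (SE), edgeR adjusted p = 1.05e-06). The call of Ccnd3 was lost without Wt2 (adjusted p = 0.415), and that of Cdkn1b without Wt2 (adjusted p = 0.0567) or Ho1 (adjusted p = 0.0598). Mycn did not pass in any gate.
In endocardium, 12 of 29 pathway genes tested were higher and 3 lower (median log2 fold change 0.20, against -0.011 over all genes tested), with Mxd3 and Ccna2 (4.70 ± 0.13 (SE), edgeR adjusted p = 7.23e-22) highest and Mxd4 (-0.60 ± 0.10 (SE), edgeR adjusted p = 1.43e-05) and Mxi1 (-0.46 ± 0.16 (SE), edgeR adjusted p = 0.0308) lowest. In that gate, 1 of 9 p53 targets tested were higher and 5 lower (median log2 fold change -0.34, against -0.011 over all genes tested). Btg2, a p53 target that slows proliferation, was lower (-0.72 ± 0.10 (SE), edgeR adjusted p = 1.14e-06), and Gtse1, a gene of G2 and mitosis, was higher (3.21 ± 0.54 (SE), edgeR adjusted p = 2.86e-05). The cells were split by 20 mitotic genes, so higher levels of genes that go with these follow from the split. The pathway genes and Gtse1 called higher in high cells, here and in the other gates, are therefore not read as a result.
The pathway genes called higher and lower were 3 and 0 of 9 in compact, 3 and 0 of 5 in trabecular, 6 and 1 of 19 in atrial, and 5 and 1 of 24 in cushion cells. The p53 targets were 0 and 1 of 4, 0 and 2 of 4, 0 and 3 of 6, and 0 and 1 of 5 in these gates, and the Myc targets 6 and 1 of 12, 3 and 0 of 12, 9 and 0 of 14, and 2 and 0 of 14. In endocardium, 5 of 15 Myc targets were higher and none was lower.

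**Figure D5:**
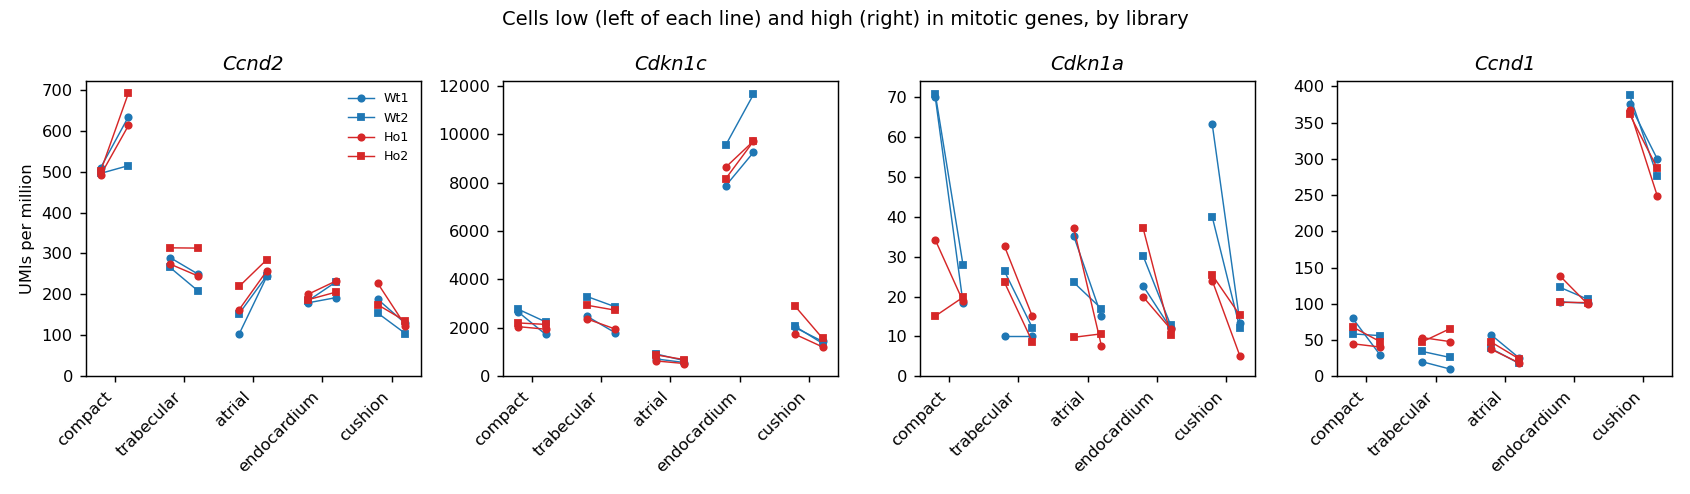
Level of Ccnd2, Cdkn1c, Cdkn1a and Ccnd1 (CPM, vertical axes starting at 0) in cells low (left end of each line) and high (right end) in mitotic genes, for each library of 5 gates. Lines of Cdkn1c rise in endocardium and fall in the 4 other gates, and lines of Ccnd2 fall in cushion and in trabecular cells, where the difference did not pass the test.

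The genes whose level followed each member most closely over the 28 sums were named by the Pearson correlation of log2 values, among 7558 genes. These points share libraries and gates, so the correlations are descriptions. Myc was followed by Tagln2 (r = 0.968), Emp3 (0.962) and Sh3bgrl3 (0.956), and Ccnd1 by Fbln2 (0.955), Acot1 (0.954) and Itga4 (0.953). Cdkn1c was followed by the basement membrane collagens Col4a1 (0.914) and Col4a2 (0.891) and by Piezo1 (0.891), a channel opened by stretch. Cdkn1a was followed by Mmp15 (0.897), Alas1 (0.892) and Acyp2 (0.853), and Ccnd2 by Pter (0.88), Exosc7 (0.852) and Rpl5 (0.844).
Ccnd3 was nearest to Smco4 (0.878), Cmtm7 (0.815) and Rgl1 (0.806). Cdkn1b was nearest to Sltm (0.825), Wee1 (0.822) and Hmmr (0.817), and Mycn to Galk1 (0.80), Ccna2 (0.784) and Racgap1 (0.784). Cdkn2c was nearest to Snx5 (0.813), Dab2 (0.779) and Smc4 (0.778), and Mycl to Cops3 (0.805), Cbr1 (0.797) and Zfp503 (0.788).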

How the data were processed

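The authors prepared 3' single-cell libraries and deposited UMI counts per gene and cell barcode, made with Cell Ranger 6.1.1 on mm10 (GRCm38), with Seurat 4.1.0 also named in the submitters' notes. Depth was 109893733 and 117034633 UMIs for the Wt and 127018819 and 107377100 for the Ho libraries. Cells were kept at 500 to 50000 UMIs, 500 to 6000 genes and at most 20% mitochondrial counts, and 270, 209, 382 and 119 doublets marked by Scrublet in scanpy 1.11.5 were removed. Gate limits were set from marker UMIs without reading the members. Counts were summed per library and gate and tested with edgeR 4.0.16 (quasi-likelihood, TMM, filterByExpr, Benjamini-Hochberg over all genes tested, adjusted p under 0.05), with the library as a block between gates and mitotic states. The steps were tested on simulated data. Alternatives were other normalisation, filters, gates, depth, DESeq2 1.42.0 and leaving out each library. Named list genes were the 2 with the largest called change in each direction. The members and lists were chosen with earlier results of these data known.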

Additional observations from a re-analysis of the deposited data

Results flagged for a closer look

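The difference between cells high and low in mitotic genes was not the same in all 5 gates for 3 members, by a test of the difference itself that was added after the gate values were seen. The edgeR adjusted p was 2.54e-27 for Cdkn1c, which was higher in high cells of endocardium and lower in those of the other 4 gates. It was 2.33e-14 for Ccnd2, which was higher in high cells of compact, atrial and endocardium cells and lower in cushion cells, and which did not pass in trabecular cells (log2 fold change -0.26, adjusted p = 0.0952, lower in 4 of 4 libraries). It was 0.0415 for Ccnd1, which passed in atrial and cushion cells, both lower in high cells, and did not pass in compact (adjusted p = 0.244), trabecular (adjusted p = 0.725) or endocardium cells (adjusted p = 0.137).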

How the results depend on the processing

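Of the 14 member differences between genotypes within gates that are given above by value, 12 kept their sign under the alternatives run. The exceptions were Cdkn1a in trabecular cells (log2 fold change 0.26 as reported, -0.0093 with stricter gates) and in endocardium (0.025 as reported, -0.072 with stricter gates, -0.052 with cells thinned, and -0.037, without Wt1, to 0.098, without Wt2, with 1 library left out). Of the 49 others, all with an unadjusted p of at least 0.05, 32 changed sign under at least 1 alternative, so no direction can be read from them. Among these were Ccnd2 in Crabp1+ cells (-0.038 as reported, 0.42 without Ho1) and Mycn in the same cells (0.0051 as reported, -0.59 with cells thinned). Over the 21 pairs of gates and 10 members, 150 differences passed, of which 41 did not pass under at least 1 alternative and 1 changed sign (Cdkn1b between compact and Crabp1+ cells, 0.39 as reported, -0.033 with cells thinned), and of the 60 that did not pass 33 changed sign and 18 passed under at least 1. Between mitotic states 2 of the 14 member differences not given by value changed sign, and none of the 20 given by value. With 2 libraries for each genotype, and 24 Crabp1+ cells in Ho1, the Ho against Wt tests carry little precision, and the counts of genes called for genotype moved with most settings. They were 17 in compact, 0 in trabecular, 37 in atrial, 0 in endocardium, 18 in cushion, 0 in Crabp1+ and 5 in epicardium cells as reported. With no filter on low counts they were 88, 28, 62, 223, 105, 79 and 97 in the same order, with 1 member called in endocardium (Mycn, edgeR adjusted p = 0.0108) and 1 in cushion (Cdkn1a, adjusted p = 0.0172), and the interaction gave 230 genes and 2 members (Cdkn1c, adjusted p = 7.23e-10, and Cdkn1a, adjusted p = 0.0221). With no filter 1 member was called between mitotic states in compact cells, where 3 were reported.

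With at least 10 UMIs in every sum, which tests fewer genes, the genotype counts were 40 in compact, 20 in atrial and 2 in epicardium cells. Under the same filter 1544 genes and 1 member were called between compact and trabecular, 1827 and 3 between atrial and trabecular, 1863 genes between cushion and endocardium, 1996 genes and 4 members between epicardium and Crabp1+, and 3004 genes and 4 members between cardiomyocytes and the other gates. With stricter gates the genotype counts were 15 in atrial, 7 in cushion and 3 in epicardium cells, with doublets kept 6 in compact, 18 in atrial and 1 in endocardium, and with DESeq2 0 in compact, 6 in atrial, 27 in endocardium and 8 in cushion cells. With cells thinned to 5000 UMIs they were 4 in compact, 12 in atrial, 3 in endocardium, 1 in cushion and 1 in epicardium cells, and the contrasts gave 1167 (compact and trabecular), 2250 with 3 members (atrial and trabecular), 3661 (cushion and endocardium) and 2876 genes (epicardium and Crabp1+). With the Wt libraries alone these were 209, 1560 with 3 members, 3218 and 3362. The cause of these shifts was not tested.

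The replicate numbers pair no more than a number: the correlation of same-numbered libraries' deviations ran from -0.513 in Crabp1+ to 0.148 in atrial cells over 2 pairs. With the replicate block the genotype counts were 67 in compact, 1 in trabecular, 68 in atrial, 9 in endocardium and 38 in epicardium cells, with the crossed block, added after seeing the data, 2 in trabecular, 54 in endocardium and 13 in Crabp1+ cells, and neither called a member.

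Leaving out each library in turn gave genotype counts of 40 to 129 genes in compact, 11 to 64 in trabecular, 15 to 36 in atrial, 1 to 146 in endocardium, 36 to 80 in cushion, 0 to 117 in Crabp1+ and 14 to 55 in epicardium cells, with 0 to 1 members in atrial, endocardium, cushion and Crabp1+ cells (in the last Cdkn1c without Wt2, log2 fold change 1.94, edgeR adjusted p = 0.00159). The interaction gave 0 to 25 genes. The contrasts gave 1574 to 2936 genes and 2 to 3 members (compact and trabecular), 3307 to 4501 and 4 to 6 (atrial and trabecular), 5002 to 5940 and 6 (cushion and endocardium), 4452 to 5091 and 5 to 9 (epicardium and Crabp1+), and 9437 to 9841 and 6 to 7 (cardiomyocytes and others). Between mitotic states there were 523 to 839 genes and 1 to 2 members in compact, 365 to 694 and 1 to 3 in trabecular, 1034 to 1234 and 3 to 4 in atrial, 1939 to 2288 and 5 to 6 in endocardium, and 489 to 619 and 4 in cushion cells. For Ccnd3 the difference among gates passed with RLE size factors (adjusted p = 0.0400), against 0.0587 as reported.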
